A study of Xenopus tropicalis with 12 samples.

Results

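The genes described here code for splicing factors, the proteins that find introns in newly made RNA and help to remove them. They were chosen by a rule on gene names, and the choice was made with earlier results of these data known. A gene model was taken when its symbol began with srsf or sfrs and a digit (SR proteins), hnrnp or hnrp (heterogeneous nuclear ribonucleoproteins), snrp (proteins of the small nuclear ribonucleoproteins), sf3a or sf3b (subunits of splicing factor 3) or u2af (the U2 auxiliary factor). Of 33875 gene models, 53 matched. The 12 that carry the symbol of more than 1 gene were left out, because their reads cannot be given to a single gene, and 41 genes remained. The models left out hold hnrnpl, sf3a1, sf3b5, snrpb, a second snrpc model, snrpd3, snrpe, srsf1, srsf2, srsf5, srsf6 and srsf12, so several of the best known SR and Sm proteins are not covered by the values below.

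Splicing is carried out by the spliceosome, a machine built from small nuclear RNAs and their proteins. The U1 particle binds the start of an intron, while U2AF and then the U2 particle, with the SF3A and SF3B complexes, bind near its end. Sm proteins form a ring around most of the small nuclear RNAs and are shared by the particles. SR proteins and hnRNP proteins bind the transcript itself and shift which exons are used, SR proteins mostly towards inclusion and many hnRNP proteins towards skipping. Alternative splicing is especially common in the brain, where dividing progenitors and neurons use different exons of many genes.

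The RNA came from wild-type *Xenopus tropicalis* and from a dissected block of brain that takes in the preoptic area together with hypothalamus and thalamus. The 4 groups are stages of the Nieuwkoop-Faber (NF) table with 3 libraries each: NF50 before metamorphosis, NF56 during pro-metamorphosis, NF62 at its climax and NF66 when it is complete. No treatment separates the groups, and metamorphosis itself, which thyroid hormone drives, is what they follow. The labels call the libraries biological replicates; how many animals each holds, and their age and sex, the labels do not say.

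Total counts were 12046529 in NF56 replicate 3, 31029733 in NF66 replicate 3 and between 19732166 and 25551912 in the other 10 libraries. Of 19 symbols that mark hypothalamus or thalamus, 15 matched a model of a single gene, all 15 were tested and none was at 0 in all libraries. NF50 replicate 4 stood apart on the TPM scale (abundance of transcripts per length, set to the same total in each library), since its 20 highest models took 33.1% of its TPM, against 8.8% to 14.8% in the other 11 libraries. Stages were therefore compared on CPM, the counts of a gene over the scaled total of its library. TPM was used to compare levels between genes and, as an alternative scale, to see how the stage comparisons depend on it. On unscaled TPM the median of all models was 0.32 higher in NF56 than in NF50 and 0.29 higher in NF66 than in NF50 (log2), so directions below are relative to the other genes of a library.

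The 41 genes were among the more abundant transcripts of this tissue. Their mean levels over the 12 libraries had a median of 89.2 TPM, against 13.1 TPM for the 19584 models tested, and all 41 lay above that second value. The highest was hnrnpa2b1, a nuclear RNA-binding protein of the A/B class, at a mean of 836.5 TPM with libraries from 586 to 1098.5 TPM. Next in mean level came hnrnpab at 393 TPM, hnrnpa1 at 364 TPM, srsf7 at 348 TPM and hnrnpa3 at 316 TPM. The ranges of these 4 over the libraries overlapped, and their order was not tested. Sm proteins are small, and their short transcripts also ranked high per length, with snrpf at 143 TPM and snrpg at 134 TPM. The lowest means were 19.4 TPM for snrpc, a U1 protein, and 13.8 TPM for srek1ip1. For snrpc this is the kept model alone, and the snrpc model left out had more counts.

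Most splicing factor genes were lower at the end of metamorphosis than before it. In NF66 against NF50, 27 of the 41 fell and 1 rose at an adjusted p below 0.05, by edgeR's quasi-likelihood test with Benjamini-Hochberg adjustment over all models. Over all models tested, 18.8% were called lower and 17.9% higher in that comparison. All 41 genes lie above the median level of those models, and the shares were not matched for level. The median log2 fold change was -0.40 for the 41 genes and 0.02 for all models. The falls were moderate: 15 of the 41 differed by at least 1.5-fold and 4 by at least 2-fold. In 29 of the 41 the 3 NF66 libraries all lay below the 3 NF50 libraries, which was so for 24.1% of all models; in 1 they all lay above, as in 22.5% of all models. With DESeq2's size factors the split of the 41 fold changes was 6 above 0 and 35 below, against 5 and 36 here. On unscaled TPM it was 17 above and 24 below, and limma on that scale called 5 lower. With each library centred on its median (chosen after seeing the data), the TPM split was 6 above and 35 below, and limma called 23 lower. In a bulk sample, fewer cells of a type and less RNA per cell cannot be told apart.

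**Figure D1:**
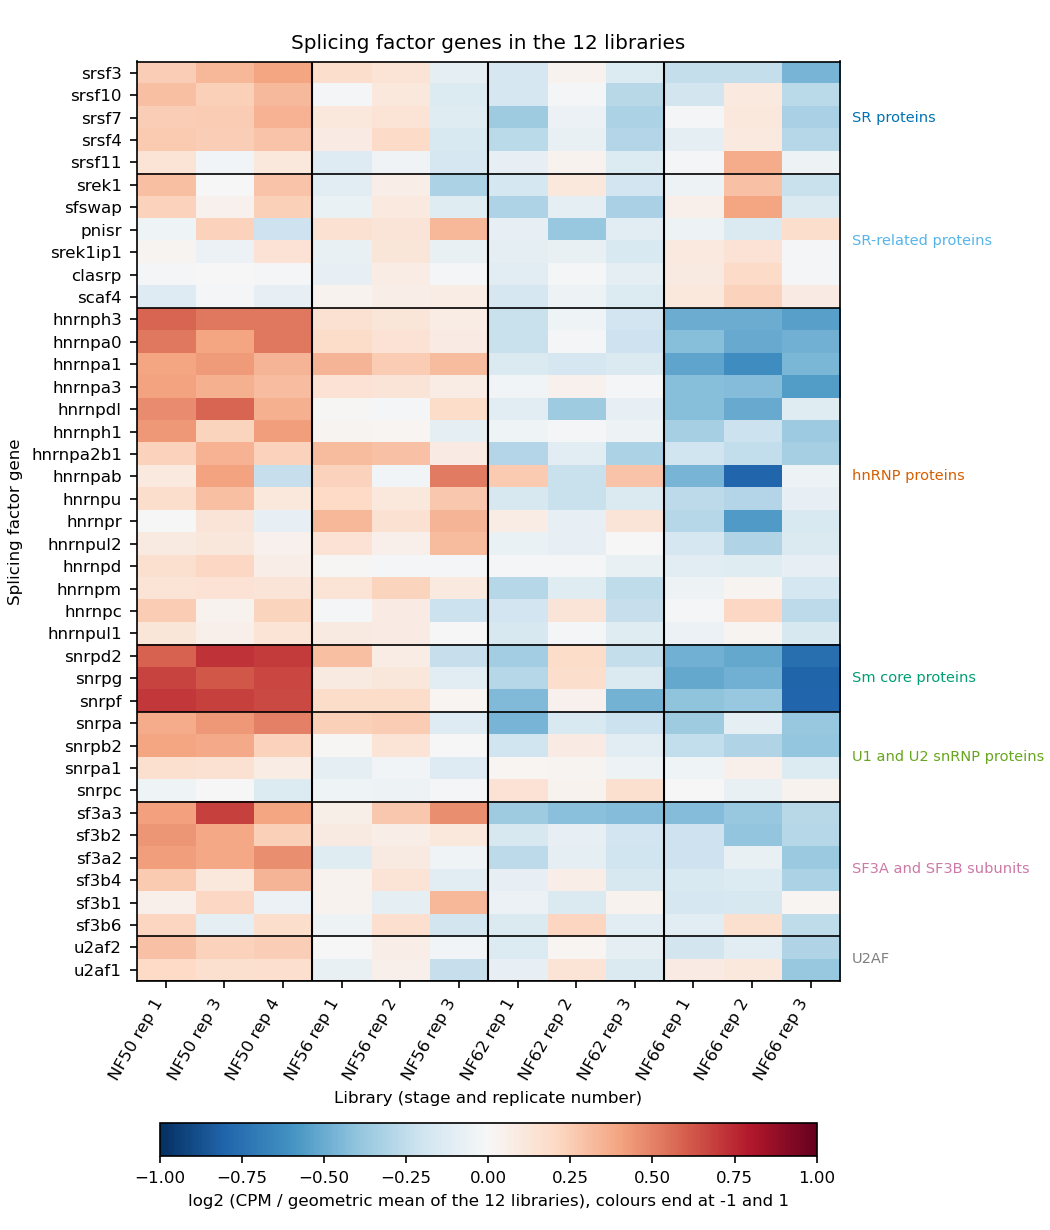
Heat map of the 41 splicing factor genes (rows, grouped by role) in the 12 libraries (columns, NF50 to NF66), coloured by log2 of CPM over the gene's geometric mean of all libraries, red above it and blue below it. Of the 41 genes, 30 had their highest stage mean at NF50 and 24 their lowest at NF66. Of the 6 SR-related genes, 1 (scaf4) differed among the stages by edgeR at an adjusted p below 0.05.

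Across the 4 stages, 29 of the 41 genes differed in some way by the edgeR test of all stages at once, against 39.6% of all models. By stage mean CPM, 30 genes were highest at NF50, 6 at NF56, 1 at NF62 and 4 at NF66. The lowest mean was at NF66 for 24 genes, at NF62 for 12, at NF56 for 4 and at NF50 for 1. The falls were spread over the series. In NF56 against NF50, 12 genes fell and none rose, where 7.96% of all models were called lower and 6.51% higher. At an unadjusted p below 0.05, edgeR gave 2 higher in that comparison and 1 higher in the next, and DESeq2 after adjustment gave 0 in both. In NF62 against NF56, 10 fell and none rose, against 8.97% lower and 9.94% higher over all models. In NF66 against NF62, 5 fell and 1 rose, against 1.79% lower and 1.38% higher over all models. A fit that also took the library number into account (a replicate block) called more genes lower in each comparison, and at least 1 higher. The labels do not say what the number stands for, and its counts are given in the last section. Number 4 occurs only in NF50, so in that fit the NF50 level rests on NF50 replicates 1 and 3. Counted by libraries that did not overlap, 21 genes were lower and 2 higher in NF56 against NF50, where 19% and 16.5% of all models were. The counts were 17 lower and 1 higher in NF62 against NF56 (18% and 18% of all models), and 14 lower and 2 higher in NF66 against NF62 (10.6% and 8.86%). All 12 genes that fell in NF56 against NF50 were also called lower in NF66 against NF50; these comparisons share the NF50 libraries. In all 12 fits that left out a library, 5 of the 12 calls in NF56 against NF50 stood, 6 of the 10 in NF62 against NF56, 3 of the 6 in NF66 against NF62 and 22 of the 28 in NF66 against NF50.

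**Figure D2:**
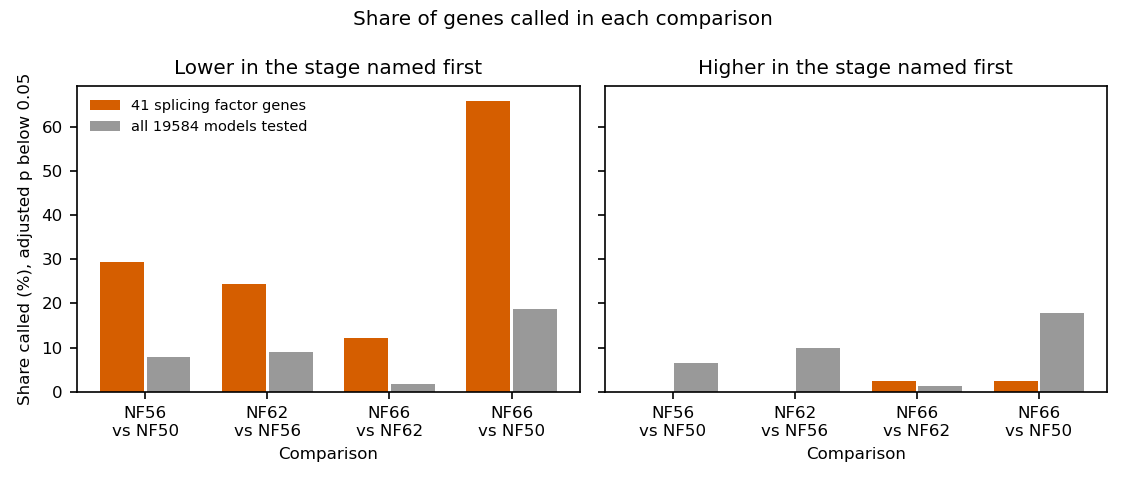
Bars give the share of genes called lower (left panel) and higher (right panel) in the stage named first, in percent at an adjusted p below 0.05, for the 41 splicing factor genes and for all 19584 models tested. The share called lower in NF66 against NF50 was 65.9% for the splicing factor genes and 18.8% for all models, which were not matched for level. Without the replicate block, no splicing factor gene was called higher in NF56 against NF50 or in NF62 against NF56.

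The hnRNP proteins, which coat nascent transcripts, made up 15 of the 41 genes, and 12 of them fell in NF66 against NF50. Their median log2 fold change was -0.52. For hnrnph3, a member of the H/F class that binds runs of G, the NF50 libraries had 184, 178 and 177 CPM, the NF56 libraries 137, 134 and 129.8 CPM, the NF62 libraries 106, 119.8 and 108 CPM and the NF66 libraries 87.5, 87.2 and 84.7 CPM. No stage overlapped the next. It fell in NF56 against NF50 (log2 fold change -0.43 ± 0.05 SE, adjusted p = 0.000683), in NF62 against NF56 (-0.27 ± 0.05, adjusted p = 0.00572) and in NF66 against NF62 (-0.36 ± 0.05, adjusted p = 0.00917). In NF66 against NF50 its log2 fold change was -1.06 ± 0.05 (adjusted p = 2.99e-07). The other gene called in all 3 successive comparisons was hnrnpa0, named after its values were seen, at -0.95 ± 0.07 in NF66 against NF50 (adjusted p = 1.62e-06). Its call in NF66 against NF62 was lost without any 1 of the 6 libraries of those stages, and its call in NF62 against NF56 without NF62 replicate 1.

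The abundant A/B-class genes fell at different steps. For hnrnpa1, which is known to repress exons and to shuttle out of the nucleus, the libraries had 840.4, 860.3 and 808 CPM at NF50, 809, 764 and 797 CPM at NF56, 579, 569 and 578 CPM at NF62 and 445, 415 and 467 CPM at NF66. NF50 and NF56 overlapped (log2 fold change of NF56 over NF50 -0.08 ± 0.05, adjusted p = 0.334), and the later stages were each separate from the one before. The fall was -0.46 ± 0.05 in NF62 against NF56 (adjusted p = 0.000215) and -0.38 ± 0.05 in NF66 against NF62 (adjusted p = 0.0067), and -0.92 ± 0.05 in NF66 against NF50 (adjusted p = 5.4e-07). Its relative hnrnpa2b1 had 845, 912 and 843 CPM at NF50, 892, 878 and 762 CPM at NF56, 587, 666 and 576 CPM at NF62 and 627, 606 and 569.5 CPM at NF66. Here a single step separated the stages: -0.47 ± 0.08 in NF62 against NF56 (adjusted p = 0.00189), with -0.02 ± 0.08 in NF66 against NF62 (adjusted p = 0.959). By contrast, hnrnpa3 had 899.8, 871 and 845 CPM at NF50, 752, 744 and 717 CPM at NF56, 667, 703 and 675 CPM at NF62 and 507, 503 and 462 CPM at NF66. Its first fall, -0.24 ± 0.05 in NF56 against NF50 (adjusted p = 0.0104), was not called without NF50 replicate 1, and its larger fall was -0.47 ± 0.05 in NF66 against NF62 (adjusted p = 0.00322). Whether the timing differed between these genes was not tested.

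Among the remaining hnRNP genes, hnrnpdl and hnrnph1 fell by 0.81 and 0.66 on the log2 scale in NF66 against NF50, and both had already been called lower in NF56 against NF50. That earlier call of hnrnpdl was lost when NF50 replicate 1 or 3, or else NF56 replicate 1 or 2, was left out. In NF62 against NF56, hnrnpm and hnrnpu, both large nuclear RNA-binding proteins, each fell by 0.37. Not called in NF66 against NF50 were hnrnpc, hnrnpul1 and hnrnpab. The last, with the second highest mean TPM of the 41, had 105, 83.5 and 140.0 CPM at NF66 and 155, 192 and 123 CPM at NF50, which overlap (log2 fold change -0.52 ± 0.22, adjusted p = 0.0963). With the replicate block, edgeR called hnrnpab lower (adjusted p = 0.000358).

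**Figure D3:**
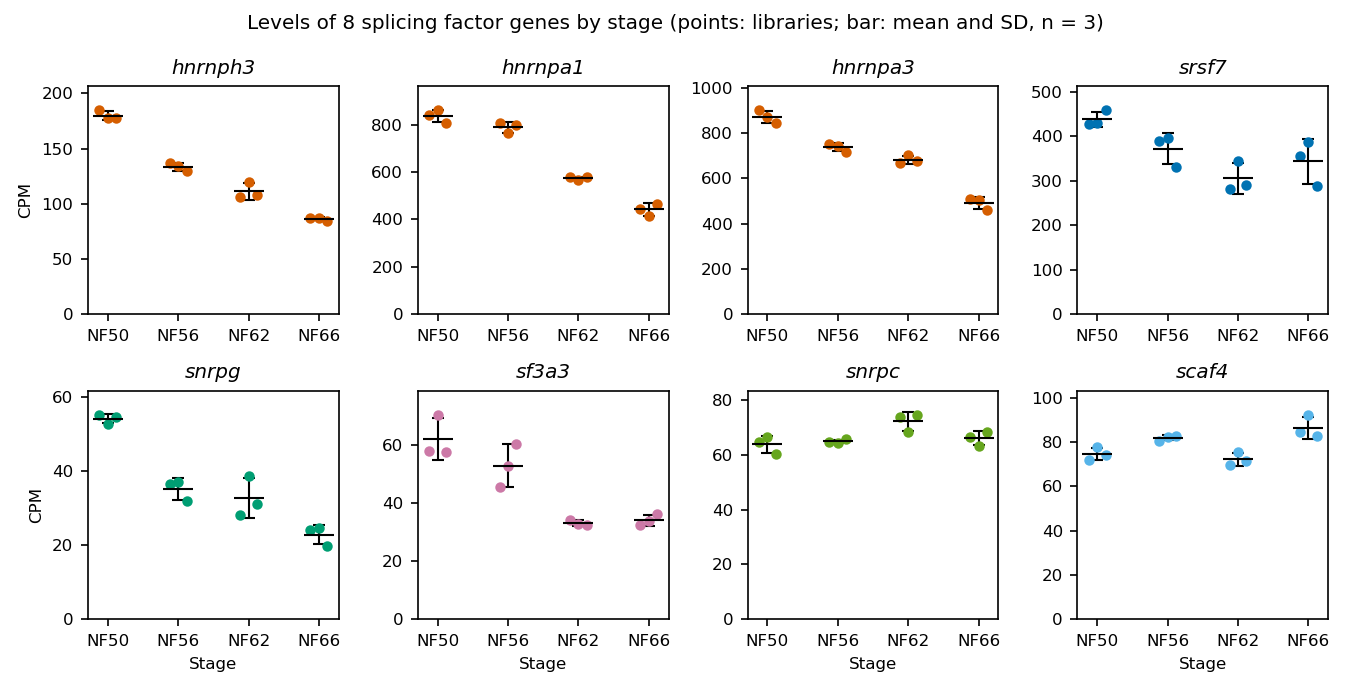
CPM of 8 splicing factor genes by stage, with a point for each library and a bar for the mean and SD of 3 libraries; each vertical axis starts at 0. For hnrnph3 no stage overlaps the next, sf3a3 drops between NF56 and NF62, snrpc overlaps between NF50 and NF66, and scaf4 is higher in NF66 than in NF62.

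Among the splicing factor genes, the transcripts of the Sm genes measured had the largest falls in NF66 against NF50. All 3 Sm genes measured fell in NF66 against NF50, with log2 fold changes of -1.25 ± 0.16 for snrpd2 (adjusted p = 0.000108), -1.25 ± 0.12 for snrpg (adjusted p = 1.82e-05) and -1.20 ± 0.14 for snrpf (adjusted p = 7.2e-05). For snrpg the libraries had 55.1, 52.8 and 54.7 CPM at NF50, 36.5, 37.1 and 31.8 CPM at NF56, 28.2, 38.8 and 31.2 CPM at NF62 and 24.1, 24.6 and 19.8 CPM at NF66. NF50 lay above all later libraries, and NF56 and NF62 overlapped. snrpf had 62.04, 61.2 and 60.02 CPM at NF50, 43.4, 43.1 and 38.6 CPM at NF56, 28.1, 39.2 and 27.5 CPM at NF62 and 28.9, 29.3 and 22.0 CPM at NF66. Its NF62 and NF66 libraries overlapped, and NF62 replicate 2 stood above the other NF62 libraries in all 3 Sm genes. snrpd2 had 17.2, 16.9 and 14.2 CPM at NF66, against 36.2, 39.6 and 39.0 CPM at NF50. The genes were also called lower in NF56 against NF50, by 0.62 for snrpg (adjusted p = 0.00682), 0.60 for snrpd2 (adjusted p = 0.0262) and 0.55 for snrpf (adjusted p = 0.0249). That call was lost for snrpd2 when any 1 of the NF50 libraries, or else NF56 replicate 2 or 3, was left out, and for snrpf when NF50 replicate 1 or 4, or any 1 of the NF56 libraries, was. The fall of snrpg in NF66 against NF62 (-0.52 ± 0.12, adjusted p = 0.0476) was called in none of the 12 fits that left out a library.

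Among the other snRNP proteins, snrpa, snrpb2 and snrpa1 fell in NF66 against NF50 and snrpc did not. snrpa, a U1 protein that binds a loop of the U1 RNA, had 25.2, 30.0 and 24.8 CPM at NF66 and 41.7, 43.5 and 45.7 CPM at NF50, with no overlap (-0.71 ± 0.12, adjusted p = 0.000858). Its step in NF62 against NF56 was -0.40 ± 0.12 (adjusted p = 0.0407), a call lost in 7 of the 12 fits that left out a library (those without replicate 1 of any stage, NF50 replicate 4, NF56 replicate 2 or NF62 replicate 3). Its U2 counterpart snrpb2 fell by 0.65 (adjusted p = 0.000185). snrpa1, which helps snrpb2 to bind the U2 RNA, had 97.2, 104 and 91.2 CPM at NF66 and 112, 111 and 106 CPM at NF50. That small difference (-0.17 ± 0.06, adjusted p = 0.0369) was lost when replicate 1 of any stage, or NF66 replicate 3, was left out. On unscaled TPM, where the median of all models was 0.29 higher, its log2 fold change was 0.16. With each library centred on its median it was -0.14 and not called. snrpc, a U1 protein at the start of the intron, had 66.4, 63.3 and 68.4 CPM at NF66 and 64.5, 66.5 and 60.5 CPM at NF50 (0.05 ± 0.06, adjusted p = 0.54). These values come from the snrpc model with fewer counts, 18109 over the 12 libraries. The snrpc model left out, which also carries uhrf1bp1, had 50481, so snrpc is covered only in part.

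Of the 6 SF3 subunits, which hold the U2 particle at the branch point, 4 fell in NF66 against NF50. sf3a3 had 57.9, 70.0 and 57.4 CPM at NF50, 45.4, 52.7 and 60.2 CPM at NF56, 34.2, 32.7 and 32.4 CPM at NF62 and 32.3, 33.6 and 36.1 CPM at NF66. It stepped down between NF56 and NF62 without overlap (-0.67 ± 0.11, adjusted p = 0.00156), and its NF66 and NF62 libraries overlapped. sf3a2 fell earlier, by 0.44 in NF56 against NF50 (adjusted p = 0.00666). sf3b2 and sf3b4 fell by 0.65 and 0.44 in NF66 against NF50. Not called were sf3b1, the subunit that contacts the branch-point region, at -0.17 ± 0.11 (adjusted p = 0.25), and sf3b6, which touches the branch-point adenosine, at -0.17 ± 0.14 (adjusted p = 0.39). sf3b6 had the highest mean level of the SF3 subunits, 112 TPM. Of the U2AF pair, u2af2, the large subunit that binds the polypyrimidine tract, had 308, 325 and 284 CPM at NF66 and 429, 412 and 415 CPM at NF50 (-0.46 ± 0.06, adjusted p = 0.00014). In NF56 against NF50 it fell by 0.24 (adjusted p = 0.0211), a call lost without NF50 replicate 1 and without NF56 replicate 1 or 3. u2af1, the small subunit that reads the end of the intron, had 47.3, 48.1 and 34.5 CPM at NF66 and 51.4, 50.05 and 50.2 CPM at NF50. Its libraries did not overlap, and the difference was not called (-0.23 ± 0.13, adjusted p = 0.195). With the replicate block, edgeR called u2af1 (adjusted p = 0.0144) and sf3b6 (adjusted p = 0.0218) lower in NF66 against NF50. Whether the subunits of a complex differ in their change was not tested.

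The SR proteins promote exon inclusion through their serine- and arginine-rich tails, and 4 of the 5 measured fell in NF66 against NF50. srsf7 had 428, 431 and 459 CPM at NF50, 389, 397 and 332 CPM at NF56, 282, 346 and 290.2 CPM at NF62 and 357, 387 and 287 CPM at NF66. NF50 lay above all other libraries, and the 3 later stages overlapped. Its log2 fold change in NF66 against NF50 was -0.35 ± 0.12 (adjusted p = 0.0322). srsf4 fell by 0.35 as well (adjusted p = 0.0251), with 293, 335 and 257 CPM at NF66 and 374, 371 and 381 CPM at NF50. Both calls were lost when NF50 replicate 1 or 4, or else NF66 replicate 1 or 3, was left out. srsf3, among the smallest of the family, fell by 0.64 (adjusted p = 0.000233) and srsf10, a regulator also known as a splicing repressor when it loses its phosphates, by 0.40 (adjusted p = 0.00945). srsf11 had 471, 613 and 459 CPM at NF66 and 520.5, 465 and 511 CPM at NF50, which overlap (0.04 ± 0.10, adjusted p = 0.781). In NF56 against NF50 edgeR called no SR gene (2 lower at an unadjusted p below 0.05, and 2 lower by DESeq2), and the libraries of all 5 lay lower without overlap, as did 19% of all models. SR genes that edgeR called lower there with the replicate block included srsf4 (adjusted p = 0.00664) and srsf7 (adjusted p = 0.0242).

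**Figure D4:**
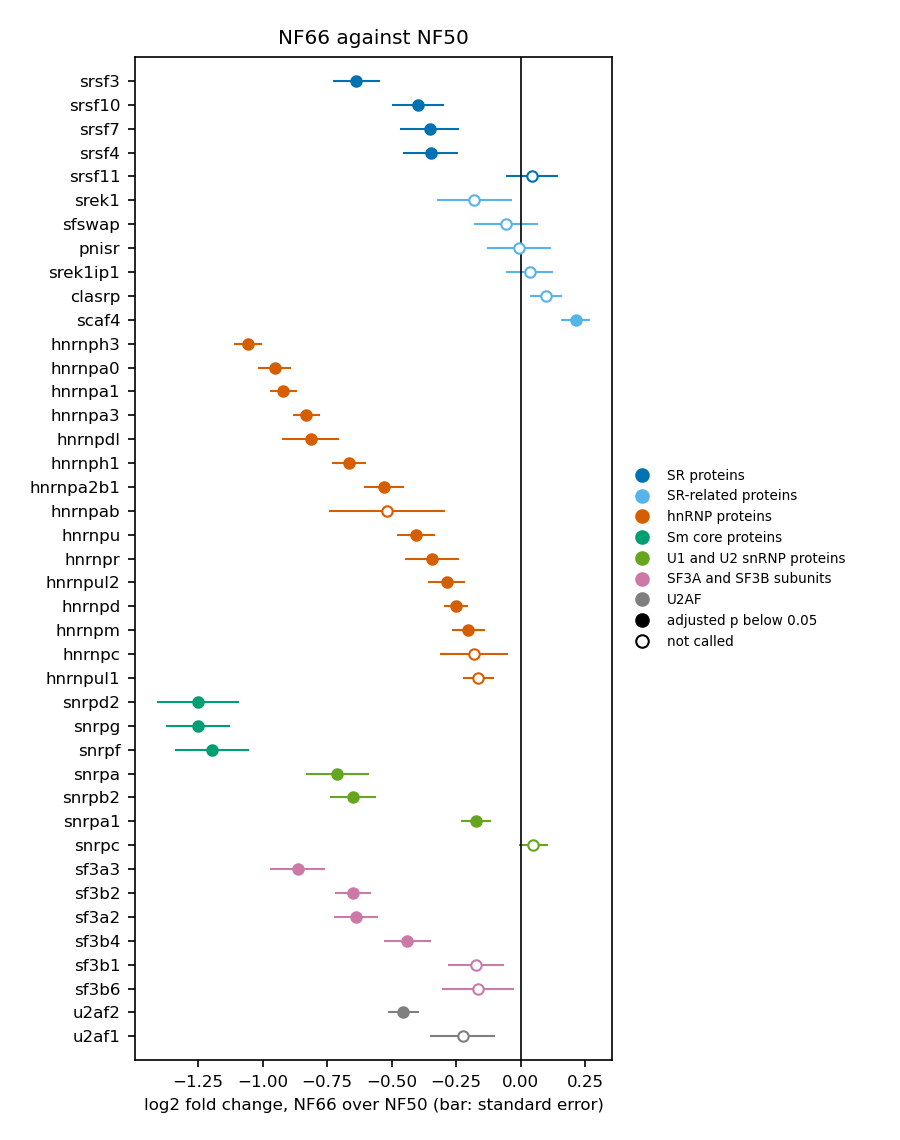
Log2 fold change of NF66 over NF50 for each of the 41 splicing factor genes, with its standard error, coloured by role; filled points had an adjusted p below 0.05 and open points were not called. The 3 Sm genes lie at -1.20 to -1.25, and the SR-related genes lie on either side of 0 from -0.18 to 0.21.

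The 6 genes with older sfrs symbols code for SR-related proteins that are not classical SR proteins, and edgeR called none of them lower in NF66 against NF50 (0 at an unadjusted p below 0.05, and 0 by DESeq2). Their median log2 fold change was 0.02, and those of the 5 genes with srsf symbols had a median of -0.35. In the plan the srsf and sfrs genes formed a single role, so this split departs from it. The difference between the groups was not tested. The gene that rose was scaf4 (sfrs15), whose protein binds RNA polymerase II. It had 71.8, 77.6 and 74.3 CPM at NF50, 80.6, 82.4 and 82.6 CPM at NF56, 69.8, 75.7 and 71.3 CPM at NF62 and 84.4, 92.1 and 83.0 CPM at NF66. NF66 lay above every other library. The rise was 0.21 ± 0.06 against NF50 (adjusted p = 0.0122; not called without NF50 replicate 1) and 0.26 ± 0.06 against NF62 (adjusted p = 0.0364). That second call was lost in 9 of the 12 fits that left out a library, the exceptions being NF50 replicates 3 and 4 and NF66 replicate 3. In NF62 against NF56 scaf4 fell by 0.18 (adjusted p = 0.0491), a call lost in 7 of the 12 fits, all but those without NF50 replicates 3 and 4, NF62 replicate 2 and NF66 replicates 2 and 3. All 6 SR-related genes had a log2 fold change above 0 in NF66 against NF62, from 0.11 to 0.36, and only scaf4 was called. sfswap (sfrs8), which regulates its own splicing in Drosophila, had the largest, with 458, 582 and 401 CPM at NF66 and 357, 414 and 353 CPM at NF62, which overlap (0.36 ± 0.12, adjusted p = 0.168).

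Other splicing genes, taken from lists of known spliceosome parts and regulators, also changed. Of 62 other core spliceosome proteins, 21 fell (33.9%) and 1 rose (1.61%) in NF66 against NF50, with a median of -0.15. The shares of all models called there were 18.8% lower and 17.9% higher. The difference between these 62 and the 41 genes was not tested. ppil1, an isomerase of the catalytic spliceosome, averaged 16.5 ± 1.5 CPM at NF66 and 34.5 ± 0.86 CPM at NF50 (SD, n = 3 each; log2 fold change -1.07, adjusted p = 7.3e-05 by edgeR). lsm3, part of the ring on U6, averaged 11.0 ± 0.61 CPM at NF66 and 21.5 ± 0.93 CPM at NF50 (-0.97, adjusted p = 3.6e-05). Of 17 genes for assembly and import of snRNPs, 8 fell (47.1%). They include prmt5 (-0.71 ± 0.06, adjusted p = 5.53e-06) and wdr77 (-0.61 ± 0.09, adjusted p = 0.000391), which together methylate Sm proteins, and smn2 (-0.60 ± 0.09, adjusted p = 0.000444), whose product loads the Sm ring.

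Of 20 SR protein kinases and further SR-related genes, 9 fell (45%) and 2 rose (10%) in NF66 against NF50. Among all models, 18.8% were called lower and 17.9% higher. srpk1, which phosphorylates SR proteins in the cytoplasm, fell by 0.63 (adjusted p = 8.39e-05) and the nuclear kinase gene clk3 by 0.79 (adjusted p = 3.12e-05). clk1, another nuclear SR kinase, averaged 372 ± 65.3 CPM at NF66 and 276 ± 11.7 CPM at NF50 (SD, n = 3 each), a rise of 0.43 ± 0.13 (adjusted p = 0.0211 by edgeR). Of 19 genes for the exon junction complex, mRNA export and nonsense-mediated decay, 9 fell (47.4%) and 2 rose (10.5%). ddx39a, an export helicase, had the largest fall of that list, -1.44 ± 0.06 (adjusted p = 7.47e-08). alyref, an export adaptor, fell by 0.71 (adjusted p = 0.000573), and upf3a, of the decay pathway, rose by 0.46 (adjusted p = 7.3e-05).

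Of 39 further regulators of splicing, not all of them tissue-restricted, 16 fell (41%) and 7 rose (17.9%) in NF66 against NF50. Over all models, 18.8% were called lower and 17.9% higher. msi1, an RNA-binding protein of neural progenitors, averaged 72.9 ± 3.2 CPM at NF66 and 250.3 ± 19.1 CPM at NF50 (SD, n = 3 each; log2 fold change -1.78 ± 0.09, adjusted p = 2.95e-07 by edgeR). ptbp1, which represses neuronal exons in dividing cells, fell by 0.90 (adjusted p = 6.53e-05), and its neuronal relative ptbp2 fell by 0.34 (adjusted p = 0.00154). elavl3, of the neuronal Hu family, fell by 0.56 (adjusted p = 4.38e-05), and mbnl1, which is known for promoting mature splice forms, rose by 0.55 (adjusted p = 7.32e-06). By mean CPM, celf2, celf4 and rbfox3, named after their values were seen, were also higher at NF66 than at NF50. They averaged 411 ± 71.1, 389 ± 37.5 and 194 ± 1.5 CPM at NF66. Their NF50 averages were 261 ± 11.4, 253 ± 9.8 and 149 ± 10.1 CPM (SD, n = 3 each). nova1 and nova2, neuronal regulators, had log2 fold changes of -0.20 and -0.22 (adjusted p = 0.0294 and 0.0134). On unscaled TPM, where the median of all models was 0.29 higher, these were 0.14 and 0.12. The call of nova1 was lost when NF50 replicate 1 or 3, or NF66 replicate 2 or 3, was left out, and that of nova2 when replicate 1 of NF50 or NF66 was. rbfox1 (0.07 ± 0.07), rbfox2 (0.07 ± 0.50) and srrm4 (-0.10 ± 0.08), all known to promote neuronal exons, were not called in that comparison. srrm4 rose by 0.30 in NF56 against NF50 (adjusted p = 0.0263) and fell by 0.31 in NF62 against NF56 (adjusted p = 0.0165). The rise was not called when any 1 of the NF50 libraries, or NF56 replicate 1 or 3, was left out, and the fall when NF56 replicate 1 or 3 was.

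In the successive comparisons, called genes of the same lists were fewer, as were those of all models. In order of stage, 7.96%, 8.97% and 1.79% of all models were called lower, and 6.51%, 9.94% and 1.38% higher. In NF66 against NF50 the shares were 18.8% and 17.9%. In NF56 against NF50, lsm7, of the U6 ring, fell by 0.60 (adjusted p = 0.00994) and upf3a rose by 0.61 (adjusted p = 0.000198). In NF62 against NF56, snrnp70, the U1 protein that SR proteins contact, averaged 790.2 ± 31.1 CPM at NF62 and 1025 ± 41.8 CPM at NF56 (SD, n = 3 each), a fall of 0.38 by edgeR (adjusted p = 0.00497). son, a large SR-related protein of nuclear speckles, fell by 0.34 in that step (adjusted p = 0.003) and rose by 0.38 in NF66 against NF62 (adjusted p = 0.0113; not called without NF62 replicate 1 or 3). clk1 rose by 0.64 in NF66 against NF62 (adjusted p = 0.0254), a call lost when replicate 1 of NF50 or NF62, NF62 replicate 3 or NF66 replicate 2 was left out. The paraspeckle protein gene nono and the helicase gene ddx39b fell by 0.52 and 0.51 in NF62 against NF56, and strap, of the SMN complex, rose by 0.30 (adjusted p = 0.0116). syncrip, an hnRNP relative, fell by 0.45 in NF66 against NF62 (adjusted p = 0.00389).

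Markers of several cell types moved over the same stages, and their part in the changes of the splicing factor genes was not tested. Of 18 tested markers of dividing cells, 16 fell and 2 rose in NF66 against NF50 (median log2 fold change -3.38). Of all models, 18.8% were called lower and 17.9% higher in that comparison. The 19 matched markers had summed levels of 292.5 to 309 CPM in NF66 and 439.8 to 459.7 CPM in NF50. Such a sum follows the most abundant genes of a list and does not give the size of the typical change. Progenitor and radial glia markers fell for 10 of 12 tested, with sums of 1277 to 1430 CPM in NF66 and 2461 to 2602 CPM in NF50. Of 14 tested markers of mature neurons, 10 rose, and the 15 matched had sums of 9378 to 9633 CPM in NF66 and 7242 to 7381 CPM in NF50. The list of further splicing regulators above shares msi1 with the progenitor markers and rbfox3 with those of mature neurons. Of 7 markers of oligodendrocytes, 5 rose, with sums of 1885 to 2676 CPM in NF66 and 915 to 1059 CPM in NF50. In NF56 against NF50, 12 splicing factor genes and 13 of the 18 markers of dividing cells fell, where 7.96% of all models were called lower. In NF62 against NF56, 10 splicing factor genes and 14 of the 18 markers fell (8.97% of all models). In NF66 against NF62, 5 splicing factor genes and 2 of the 18 markers fell (1.79% of all models). No marker of these 4 lists was at 0 in all libraries. In NF66 against NF50, smaller lists gave 3 of 8 higher for microglia and leukocytes. Lower calls were 2 of 4 for red blood cells, 2 of 6 for retina and pineal and 3 of 4 for pituitary. Of 3 skeletal muscle markers, 2 fell and 1 rose. Among the 15 markers of hypothalamus and thalamus, 4 rose (26.7%) and 2 fell (13.3%), where 17.9% and 18.8% of all models did.

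Within a stage, the library numbered 3 often stood at an end of the range. It was the highest of its stage in all 4 stages for 7 of the 41 genes and the lowest in all 4 for 9, as it was for 10.3% and 11.9% of all models tested. The 7 genes are sf3b1, snrpc, hnrnpab, hnrnpdl, hnrnpr, hnrnpu and hnrnpul2, and the 9 are sf3b4, srsf4, srsf10, srsf11, sfswap, srek1, u2af1, hnrnpc and hnrnph1. For hnrnpab the coefficient of variation within a stage had a median of 20.5%. What the number stands for is not given in the labels. Of the 13 genes with no call in any comparison, 8 are among these 16: sf3b1, snrpc, hnrnpab, u2af1, srsf11, sfswap, srek1 and hnrnpc. The same share over all models without a call was not computed. Spread between the libraries of a stage also enters the test, so the counts are not independent. Whether the library number bears on the missing calls was not tested.

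**Figure D5:**
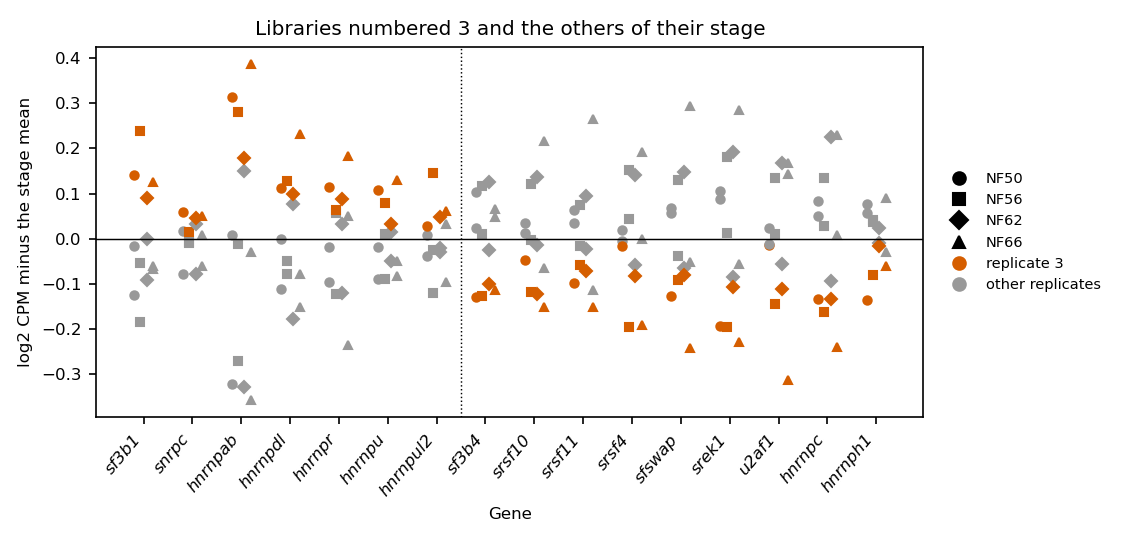
Log2 CPM minus the mean of the stage for the 16 genes whose library numbered 3 was the highest (left of the dotted line) or the lowest (right) of its stage in all 4 stages; orange marks replicate 3, grey the other replicates, and the marker shape the stage. The spread is widest for hnrnpab, whose replicate 3 lies above the other replicates at every stage.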

How the data were processed

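Total RNA from 12 brain samples was sequenced. The authors deposited RSEM expected counts for each gene model, per the file headers, in a combined matrix and in 1 table per library. Those deposited tables also hold TPM, a signal per length, per the file headers. Each table has 35241 lines for 33875 models, since a model with several annotated genes is listed on several lines. Summed over lines, TPM therefore exceeds its nominal total, and each model was used once. An FPKM column was deposited by the authors as well and was not used. RSEM, Bowtie, cutadapt, DESeq2 and CASAVA 1.8.2 are listed, per the submitters' processing notes, with no role. Genome build, annotation and strand setting were not given in the sources used here; coordinates are left out, and reads of close relatives or overlapping genes may be shared in ways that cannot be checked.

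Symbols came from the deposited annotation. Of the 41 genes, 9 also carry another symbol (sf3b14 for sf3b6, hnrpdl for hnrnpdl, hnrnph2 for hnrnph1, and sfrs names for the 6 SR-related genes). Expected counts were rounded and models kept with edgeR's filterByExpr by stage (minimum count 10, total 15), which left 19584 models with 99.93% of counts. TMM scaling, glmQLFit with a mean per stage and glmQLFTest (edgeR 4.0.16, R 4.3.3) gave 4 comparisons and a test of any difference, with Benjamini-Hochberg adjustment over all models and a threshold of 0.05. Errors are standard errors from the F statistic. CPM uses TMM-scaled library sizes. The edgeR fit was also run on counts simulated with known changes, and its outcome is not given here. Libraries were simulated as independent, so a structure shared by library number was not covered.

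The genes and lists were chosen with earlier results of these data known. Named are the 2 most abundant genes of each role (srsf and sfrs genes as a single role) and the 4 largest called rises and falls of each comparison. Most of the 2 largest called changes of each other list and 9 regulators are also named. Values are not given for every comparison in which a gene was selected. Selected but not described above were clns1a, at -0.42 in NF56 against NF50, and lsm4 and tardbp, at -0.29 and -0.22 in NF66 against NF62. Those calls were lost in 7, 6 and 9 of the 12 fits that left out a library. Further genes were named after their values were seen. Alternatives were DESeq2 1.42.0, its size factors, other filters, limma 3.58.1 on log2(TPM + 1), a replicate block, fits on the compared stages and fits without each library.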

Additional observations from a re-analysis of the deposited data

How the results depend on the processing

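The counts of lower genes were 12, 10 and 5 in the successive comparisons, in order of stage, and 27 in NF66 against NF50. limma on unscaled log2(TPM + 1) gave 0, 0, 0 and 5 lower, none higher and 5 with any difference against 29; the cause was not tested. Centring each library on its median, chosen after seeing the data, gave 7 lower in NF56 against NF50. Without a filter on low counts 3 fell in NF66 against NF62, and with only the compared stages, hence fewer libraries, none did. The single gene higher in NF66 against NF62 was lost (0) in both of these and with either TPM scale. Leaving out 1 library gave 5 to 13, 6 to 12, 3 to 5 and 22 to 28 lower, and 0 to 1 higher in each comparison that includes NF66. The lowest counts came without NF50 replicate 1 (5) or NF56 replicate 1 or 3 (7 each) in NF56 against NF50, without NF62 replicate 1 (6) in NF62 against NF56, and without any 1 NF62 or NF66 library (3) in NF66 against NF62.

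Deviations from the stage means correlated at 0.45 to 0.59 between libraries numbered 3 and at 0.52 to 0.64 between those numbered 2, but at -0.18 to 0.09 between those numbered 1; 9 of 15 pairs were above 0.1, and 7 of 11 libraries correlated best with their own number. The labels do not say what the number stands for, so it was not treated as a pairing. With it as a replicate block the counts were 26, 19, 8 and 34 lower and 1, 1, 3 and 1 higher. Genes given above as not called that the block called lower (edgeR) include hnrnpab (adjusted p = 0.000358), sf3b6 (0.0218) and u2af1 (0.0144) in NF66 against NF50, and srsf4 (0.00664) and srsf7 (0.0242) in NF56 against NF50.

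On unscaled TPM the sign turned for clk3 (0.046), hnrnpa0 (0.038), hnrnpa3 (0.14), hnrnph1 (0.012), sf3b2 (0.12), snrpa1 (0.17), srpk1 (0.033) and u2af2 (0.14) in NF56 against NF50, and for hnrnpd (0.09), hnrnpm (0.13), hnrnpul2 (0.048), nova1 (0.14), nova2 (0.12) and snrpa1 (0.16) in NF66 against NF50. The median of all models on that scale was 0.32 higher in NF56 than in NF50 and 0.29 higher in NF66 than in NF50. All the values listed lie below that median, and none of these signs turned with each library centred on its median. DESeq2, its size factors and the stricter filter kept all these counts within 1.5 times.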
